A study of Mus musculus with 6 samples.

Results

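The pentose phosphate pathway was examined through the mRNA of 10 genes, which are 10 of the 53465 genes in a table of RNA-seq read counts from mouse liver tumour cell lines. Taldo1, which encodes transaldolase, was selected on its own group difference in these counts, among the most consistent of all genes, so its values are a description without a test. The other 9 genes, Tkt, G6pdx, H6pd, Pgls, Pgd, Rpia, Rpe, Prps1 and Prps2, were taken for their place in the pathway. Earlier results of these data were known when they were chosen. Their difference was tested with the quasi-likelihood F test of edgeR over all 11510 genes with enough reads, and an adjusted p is a Benjamini-Hochberg value over those genes.

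The pathway starts from glucose 6-phosphate, the product of hexokinase. Its oxidative arm yields NADPH, which cells use for reductive synthesis and to keep glutathione reduced, and ends in ribulose 5-phosphate. Its nonoxidative arm interconverts pentose phosphates with the sugar phosphates of glycolysis in both directions, and ribose 5-phosphate leaves the pathway as PRPP, the sugar donor of nucleotides. In the liver the pathway is known for supplying NADPH to lipid synthesis.

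RNA was collected from 3 cell lines named Myc_Utx and 3 named Myc_p53, and 1 line stands for 1 tumour, with tumours taken from different mice. All tumours were raised in livers of adult female C57BL/6 mice, by injecting into the tail vein a transposon that expresses Myc from the EF1a promoter and a plasmid with Cas9 and a guide RNA. The guide targeted Kdm6a, also called Utx and encoding a histone H3K27 demethylase, in Myc_Utx, and the gene for p53, Trp53, in Myc_p53. Every line therefore carried Myc, no line was without a knockout, and an effect of Kdm6a loss cannot be told apart from an effect of p53 loss with the opposite sign. Each line descends from edited hepatocytes of 1 animal, and the labels call the lines of a group biological replicates.

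Total counts were 4656103 to 6937497 per line. Levels are in CPM, reads of a gene relative to the size of its library after TMM scaling, and a log2 difference is always Myc_Utx minus Myc_p53. Trp53 mRNA was at 293, 294 and 275 CPM in Myc_Utx 2A, 2B and 2D and at 32.2, 34.3 and 35.6 CPM in Myc_p53 1, 2 and 3. Kdm6a mRNA was at 39.5, 45.5 and 48.8 CPM against 69.2, 64.2 and 42.3 CPM, so it was still read in every Myc_Utx line and the groups overlapped. Of 8 hepatocyte markers, the plasma protein genes Alb (at most 4.85 CPM), Ttr, Apoa1 and Serpina1a (at most 10 counts) were near 0 in all lines. Apob, of 4 tested, was the marker called lower, at no more than 1.12 CPM in Myc_Utx against 13.8, 13.1 and 53.6 CPM in Myc_p53, and Hnf4a reached 0.595 CPM in Myc_Utx and 10.1 CPM in Myc_p53. Krt8 and Krt18 reached 37.3 and 47.7 CPM in Myc_Utx and 714 and 469 CPM in Myc_p53, with overlap, and the 8 genes summed to 1.77 to 93.2 CPM against 51.7 to 1211 CPM. The 5 cholangiocyte markers summed to 508 to 1435 CPM in Myc_Utx and 152 to 1455 CPM in Myc_p53. Krt7 and Krt19 were lower in every Myc_Utx line. Krt19 was at 46.4, 4.66 and 28.6 CPM against 328, 60 and 350.2 CPM (edgeR adjusted p = 0.0653, DESeq2 adjusted p = 0.0160). Sox9, Spp1 and Epcam overlapped between the groups. Sox9 was at 40.3, 73.8 and 32.4 CPM against 34.9, 20.5 and 20.9 CPM (log2 difference 0.94, edgeR adjusted p = 0.131). Spp1 had a log2 difference of 0.21 (edgeR adjusted p = 0.883). Fibroblast markers summed to 120 to 366 CPM against 25.3 to 422 CPM, with Dcn, at most 15.5 CPM, lower in every Myc_Utx line. Pdgfrb, also of this list, was at 173, 271 and 115 CPM against 5.19, 176 and 99.6 CPM. Its groups overlapped, with a log2 difference of 0.997 (edgeR adjusted p = 0.507). Col1a1 and Col1a2 overlapped as well, with log2 differences of -2.37 and -1.34 (edgeR adjusted p = 0.251 and 0.559). Endothelial markers summed to at most 2.20 CPM. The 12 macrophage markers summed to 37.5 to 55.8 CPM in Myc_Utx and 61.4 to 136.9 CPM in Myc_p53. Of 8 tested, 6 were lower in Myc_Utx (7.69% of all genes) and 1, Cd14, was higher (6.99%). Cd14 was at 53.0, 34.1 and 32.1 CPM in Myc_Utx, most of the sum in each line, and at 19.2, 18.8 and 21.6 CPM in Myc_p53. Lyz2 reached the highest level of the 6 lower markers in Myc_Utx, at 0, 0.932 and 0 CPM against 32.1, 19.2 and 47.8 CPM. Csf1r was at 0, 0.186 and 0 CPM against 40.7, 7.19 and 34.5 CPM. Adgre1, C1qc, Ptprc and Tyrobp had no count in any Myc_Utx line. The part of any of these markers in the results that follow was not tested. In bulk RNA, fewer cells of a type and less RNA per cell cannot be told apart.

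Of the 9 genes other than Taldo1, 2 were higher in Myc_Utx, G6pdx and Rpe, and 0 were lower. Over all genes tested, 6.99% were higher and 7.69% lower by the same rule. At an unadjusted p under 0.05, 6 of the 9 were higher (16.6% of all genes) and 1 was lower (18.3% of all genes). DESeq2 called 5 of the 9 higher (9.37% of all genes given an adjusted p) and 0 lower (11.5%). In 6 of the 9 every Myc_Utx line lay above every Myc_p53 line, which 21.1% of all genes did, in 0 every Myc_Utx line lay below, which 20.9% of all genes did, and in 3 the groups overlapped. Their median log2 difference was 0.71, beside -0.01 for all genes tested.

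**Figure D1:**
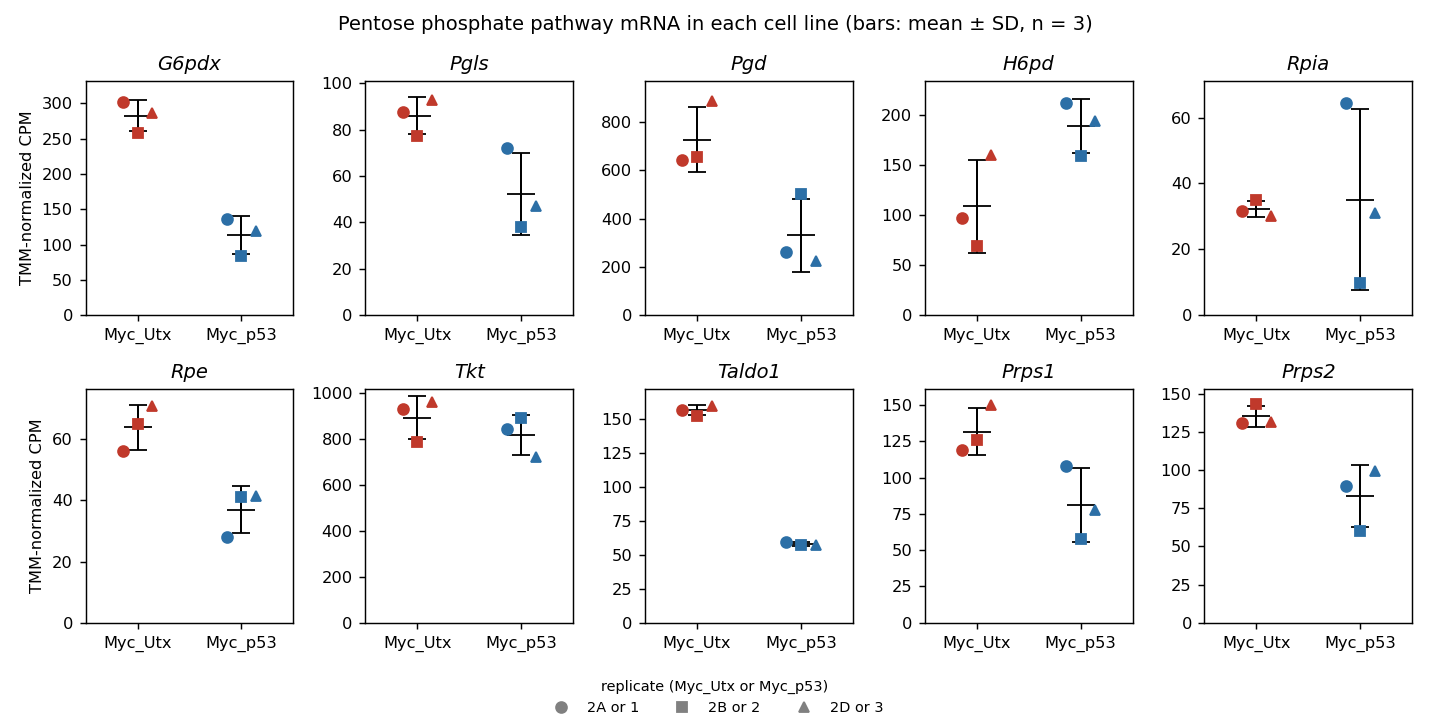
Expression of the 10 pathway genes, in TMM-normalized CPM on axes that start at 0, with 1 point for each cell line and bars for the mean ± SD of 3 lines. Taldo1 shows the narrowest groups (CV 2.35% and 2.41%), and Rpia in Myc_p53 the widest (CV 78.4%).

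G6pdx encodes glucose 6-phosphate dehydrogenase, the first and rate-limiting enzyme of the oxidative arm, and is the X-linked form expressed in all tissues. G6pdx (ENSMUSG00000031400, chromosome X, 74409483 to 74429194 of GRCm38) was at 302.7, 258.7 and 287.0 CPM in Myc_Utx 2A, 2B and 2D and at 136.4, 83.4 and 119.3 CPM in Myc_p53 1, 2 and 3. The lowest Myc_Utx line was above the highest Myc_p53 line. The means were 283 ± 22.3 and 113 ± 27.0 CPM (SD, n = 3), a 2.5-fold ratio and a log2 difference of 1.32 (standard error 0.19, edgeR adjusted p = 0.0171; DESeq2 adjusted p = 1.83e-07). With 1 line left out at a time, the log2 difference stayed between 1.15 and 1.47, and the adjusted p was above 0.05 without Myc_Utx 2A (0.0656), 2B (0.0597), 2D (0.0678) or Myc_p53 3 (0.0576). Those 4 fits called only 3 to 63 genes higher in the whole table, against 805 with all lines. Ikbkg overlaps G6pdx on the opposite strand and the strand setting of the counting is not stated; its own log2 difference was 0.04 (standard error 0.17).

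Pgd encodes 6-phosphogluconate dehydrogenase, the enzyme of the oxidative arm that makes the second NADPH and releases ribulose 5-phosphate. It was at 642, 655 and 885 CPM in Myc_Utx and at 263, 503 and 225 CPM in Myc_p53. Myc_p53 2 was high within its group but remained below all Myc_Utx lines. The ratio was 2.20-fold, with a log2 difference of 1.14 (standard error 0.33) that did not pass in edgeR (adjusted p = 0.0616) but did in DESeq2 (0.00499) and in edgeR with no filter on low counts (0.0364). Without Myc_p53 2 the log2 difference was 1.58 with an edgeR adjusted p of 0.0149. That fit called 836 genes higher in the whole table, against 805 with all lines. Leaving out any other line gave a log2 difference of 0.92 to 1.24 with an edgeR adjusted p of 0.120 to 0.168. Those fits called 3 to 481 genes higher in the whole table.

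Pgls encodes 6-phosphogluconolactonase, which hydrolyses the lactone between the dehydrogenase steps. Pgls was at 87.7, 77.3 and 92.9 CPM in Myc_Utx and at 71.9, 37.8 and 47.3 CPM in Myc_p53, without overlap. Its log2 difference was 0.72 (standard error 0.25, edgeR adjusted p = 0.0968, DESeq2 adjusted p = 0.0532). It was 1.01 with an edgeR adjusted p of 0.0386 when Myc_p53 1, its highest line in that group, was left out. Leaving out any other line gave 0.53 to 0.80 with an edgeR adjusted p of 0.140 to 0.233. Together G6pdx, Pgls and Pgd summed to 1033, 991 and 1265 CPM in Myc_Utx and to 472, 624.6 and 391.7 CPM in Myc_p53. They made up 41.9% ± 1.40 of the reads of the 10 genes in Myc_Utx and 27.5% ± 4.74 in Myc_p53 (SD, n = 3).

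H6pd, whose bifunctional product carries out the dehydrogenase and lactonase steps inside the endoplasmic reticulum, had the most negative log2 difference of the 10 genes. It was at 96.9, 69.1 and 159.6 CPM in Myc_Utx and at 212.2, 159.2 and 193.7 CPM in Myc_p53. Myc_Utx 2D stood with the lowest Myc_p53 line, and the groups overlapped by this pair alone. The log2 difference was -0.80 (standard error 0.31, edgeR adjusted p = 0.122; DESeq2 adjusted p = 0.0659), and -1.16 without Myc_Utx 2D (adjusted p = 0.0717). Pgd and H6pd lie on chromosome 4, 812703 bases apart, with log2 differences of opposite sign. Per 100 H6pd reads there were 312.5, 374 and 180 G6pdx reads in Myc_Utx and 64.3, 52.4 and 61.6 in Myc_p53, without correction for length.

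The pentose phosphates formed by the oxidative arm are interconverted by an isomerase, Rpia, which makes ribose 5-phosphate, and an epimerase, Rpe, which makes xylulose 5-phosphate. Rpe was at 56.0, 65.0 and 70.7 CPM in Myc_Utx and at 28.0, 41.1 and 41.6 CPM in Myc_p53, so that all Myc_Utx lines were higher. Its 1.73-fold ratio gave a log2 difference of 0.79 (standard error 0.20), just past the threshold (edgeR adjusted p = 0.0478; DESeq2 0.00970). The call was lost with DESeq2 size factors (0.0507), total counts only (0.0517), length and GC offsets (0.0846, log2 difference 0.65) and in 5 of the 6 fits that left out 1 line (0.0639 to 0.142); it stood without Myc_p53 2 (0.0487). Rpe meets the end of Kansl1l on the other strand, and without a stated strand setting some reads may belong to either. Kansl1l was at 14.9, 11.9 and 9.09 CPM in Myc_Utx and at 21.1, 18.8 and 50.8 CPM in Myc_p53, a log2 difference of -1.34 that is opposite in sign to that of Rpe, and the part of shared reads in the Rpe call was not tested.

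Rpia gave no group difference that could be read. Its level was 31.8, 34.8 and 30.1 CPM in Myc_Utx, a CV of 7.42%, close to the 7.88% that counting error alone gives at its mean count. In Myc_p53 it was 64.3, 9.78 and 31.1 CPM, from 409, 53 and 219 counts, which spans values on both sides of the Myc_Utx lines. The log2 difference was -0.12 (standard error 0.59, edgeR adjusted p = 0.899), turned to 0.65 without Myc_p53 1 (adjusted p = 0.391) and was -0.56 without Myc_p53 2.

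Tkt, transketolase, moves units of 2 carbons between sugar phosphates and needs thiamine diphosphate; it had the highest mean CPM of the 10 mRNAs in both groups. Tkt was at 931, 784 and 960 CPM in Myc_Utx and at 842, 888 and 719 CPM in Myc_p53, and the groups overlapped. The log2 difference was 0.13 (standard error 0.13, edgeR adjusted p = 0.530), between 0.04 and 0.23 with 1 line left out, and 0.33 with length and GC offsets (adjusted p = 0.184). Counting error at these levels is 1.51% and 1.40%, while the observed CV was 10.6% and 10.7%, so depth did not limit this comparison.

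Taldo1, transaldolase, moves units of 3 carbons and works beside transketolase in the nonoxidative arm. Taldo1 (ENSMUSG00000025503, chromosome 7, 141392199 to 141402968 of GRCm38, plus strand) was at 156.2, 152.3 and 159.6 CPM in Myc_Utx, from 787, 817 and 720 counts. In Myc_p53 it was at 59.5, 56.8 and 57.3 CPM, from 378, 308 and 404 counts. All lines of a group lay within 1.05-fold of each other, and the groups were far apart. The means were 156 ± 3.66 and 57.9 ± 1.40 CPM (SD, n = 3), a 2.70-fold ratio and a log2 difference of 1.43 (standard error 0.10) that stayed between 1.42 and 1.46 with any line left out and was 1.29 with length and GC offsets.

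The spread of Taldo1 within the groups was smaller than counting error predicts. Its CV was 2.35% in Myc_Utx and 2.41% in Myc_p53, where the mean counts of 775 and 363 give 3.59% and 5.25% from Poisson counting alone. Taldo1 was the only one of the 10 genes below its counting error in both groups, and it had been picked for consistency. It ranked 5 by F statistic among the 11510 genes but 1174 by the size of its log2 difference, and 284 genes had a larger increase. Per 100 Tkt reads there were 16.8, 19.4 and 16.6 Taldo1 reads in Myc_Utx and 7.06, 6.40 and 7.98 in Myc_p53.

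Prps1 and Prps2 encode the PRPP synthetases that turn ribose 5-phosphate into PRPP, and both are on chromosome X. Prps1 was at 118.9, 126.2 and 150.0 CPM in Myc_Utx and at 107.9, 57.4 and 77.6 CPM in Myc_p53. Prps2 was at 131.2, 143.5 and 131.6 CPM in Myc_Utx and at 89.3, 60.1 and 99.3 CPM in Myc_p53. For both genes every Myc_Utx line was higher, Myc_p53 2 was the lowest line, and Prps1 in Myc_p53 1 came near the Myc_Utx lines. The log2 differences were 0.70 (standard error 0.24) for Prps1 and 0.71 (standard error 0.20) for Prps2, which missed the threshold in edgeR (adjusted p = 0.0952 and 0.0574) and passed in DESeq2 (0.0465 and 0.0148). Leaving out Myc_p53 1 brought Prps1 past the threshold in edgeR (0.95, adjusted p = 0.0446) and leaving out Myc_p53 2 did so for Prps2 (0.52, adjusted p = 0.0374). With any other line left out neither gene passed. The edgeR adjusted p was then 0.121 to 0.231 for Prps1 and 0.0839 to 0.145 for Prps2.

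The balance between the synthetases was measured as the Prps2 share of their reads per length. It was 36.2%, 36.9% and 31.1% in Myc_Utx and 29.9%, 35% and 39.7% in Myc_p53, and each group covered most of the range of the other. The means were 34.7% ± 3.17 and 34.9% ± 4.92 (SD, n = 3; two-sided exact permutation p = 1.0, where 3 lines against 3 allow no p below 0.1).

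**Figure D2:**
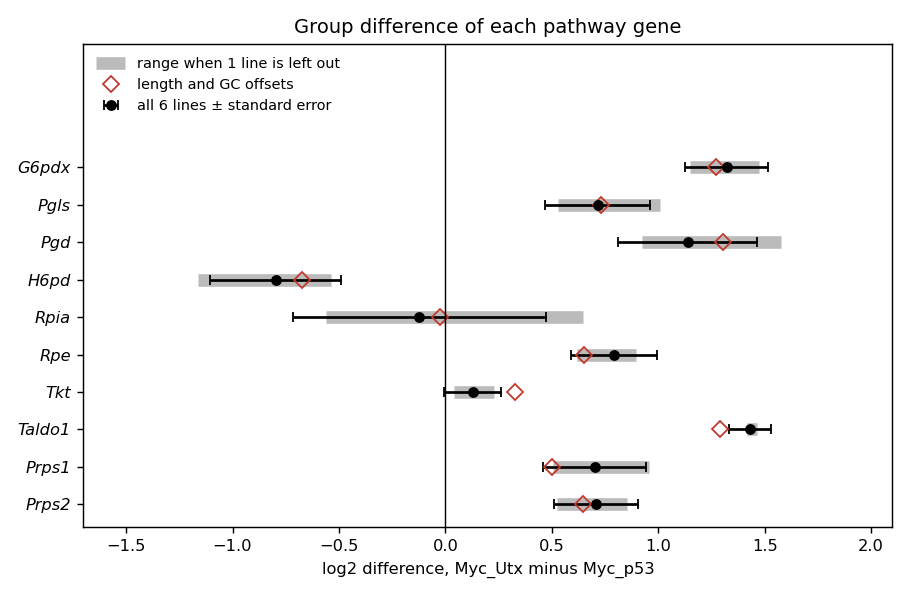
Log2 difference of each pathway gene, Myc_Utx minus Myc_p53, with all 6 lines (points, bars for the standard error), with length and GC offsets (diamonds) and the range when 1 line at a time is left out (grey bars). The Rpia range crosses 0, from -0.56 to 0.65, and H6pd lies below 0 throughout.

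Levels of different genes were compared per kilobase of the transcript length given with the counts. Tkt had the highest level in both groups, 121 ± 12.8 CPM per kilobase in Myc_Utx and 111 ± 11.9 in Myc_p53, and Pgd the next, 113 ± 21.2 and 51.3 ± 23.4 (SD, n = 3). The ranges of Tkt and Pgd overlapped in Myc_Utx, 106.6 to 130.5 and 99.7 to 137.3, and did not overlap in Myc_p53. G6pdx followed in Myc_Utx at 91.8 ± 7.24, then Taldo1 at 71.9 ± 1.69, Prps1 at 66.1 ± 8.18 and Prps2 at 35 ± 1.80. The ranges of Taldo1 and Prps1 overlapped, and so did those of Pgls, H6pd and Rpe, at 22.8, 20.7 and 20.5, while G6pdx and Prps2 each stood clear of their neighbours in the order. In Myc_p53 the genes after Pgd were Prps1 at 40.6 ± 12.8, G6pdx at 36.7 ± 8.78, H6pd at 36 ± 5.13 and Taldo1 at 26.7 ± 0.643. Then came Prps2 at 21.4, Pgls at 13.9 and Rpe at 11.9. Here the ranges of Pgd, Prps1, G6pdx and H6pd overlapped, as did those of G6pdx and Taldo1, of Prps2 and Pgls, of Pgls and Rpe and of Rpe and Rpia, while those of Taldo1 and its neighbours in the order, H6pd and Prps2, did not. Rpia was the lowest in both groups, at 6.02 and 6.54 CPM per kilobase. By the longest annotated transcript instead, Taldo1 moved from rank 4 to rank 3 in Myc_Utx and from 6 to 4 in Myc_p53, and Tkt, Pgd and Rpia kept their ranks.

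The chromosome a gene lies on moved with some of these differences. For each line, the median deviation of all tested genes of a chromosome from their mean over the 6 lines was taken, and the 3 Myc_Utx lines differed by at most 0.098 on the log2 scale on any of 20 chromosomes (median 0.0214), whereas Myc_p53 lines differed by up to 0.54 (median 0.169). Whether the Myc_Utx lines share an origin was not tested, and if they did, the SDs and adjusted p values for n = 3 would not measure the spread between tumours. Chromosome 7, with Taldo1, had the highest median difference between the groups of all 20, at 0.43. Relative to the other genes of chromosome 7, Taldo1 differed by 1.0 in place of 1.43. Chromosome X was second at 0.30, with 70.7% of its 369 tested genes above 0 against 49.2% of all genes. Relative to it, the log2 differences were 1.03 for G6pdx, 0.40 for Prps1 and 0.41 for Prps2. Tkt, on chromosome 14 with a median of -0.20, differed by 0.32 from its chromosome.

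In Myc_p53 2 the medians of chromosomes X, 6 and 7 deviated by -0.41, -0.39 and -0.31. This line was the lowest of the 6 for G6pdx, Prps1, Prps2, Rpia and Taldo1, which lie on these chromosomes, but also for Pgls, which deviated by -0.79 while chromosome 8 deviated by -0.03. Rpia deviated by -1.56 there, further than its chromosome. For Rpe, Pgls, Pgd and H6pd the medians of chromosomes 1, 8 and 4 were between -0.05 and 0.07, so that taking them off changed the differences by less than 0.1. The DNA of the lines was not measured here, and the part of gene copies in any of these values was not tested.

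**Figure D3:**
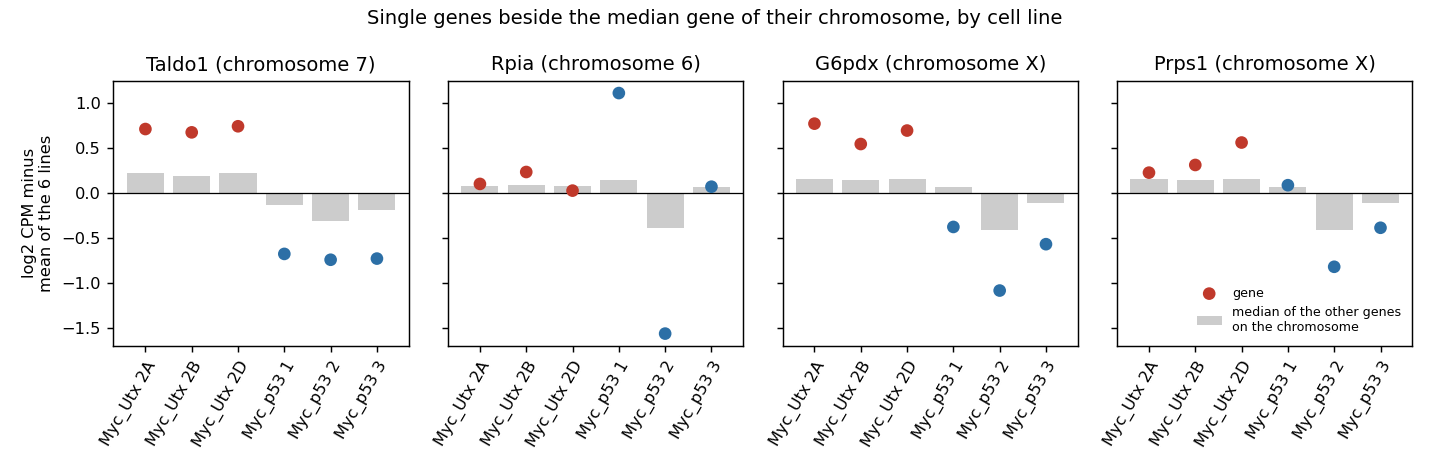
Deviation of log2 CPM from the mean of the 6 cell lines for Taldo1, Rpia, G6pdx and Prps1 (points, red for Myc_Utx and blue for Myc_p53), with the median over the other tested genes of the same chromosome (bars). The bars are level across Myc_Utx and uneven across Myc_p53, where Myc_p53 2 is lowest on chromosomes X, 6 and 7.

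Around Taldo1, 38 other genes lie within 250 kb in the table and 20 of them were tested. Of these, 7 were higher in Myc_Utx (6.99% of all genes were), 0 were lower, and 16 had a log2 difference above 0 (49.2% of all genes did). On chromosome 7 as a whole, 24.7% of tested genes were higher and 75.4% were above 0. The neighbours had a range of -0.30 to 2.16 and a median of 0.44, close to the 0.43 of the whole chromosome. Pidd1, a death domain protein, was at 41.5, 51.6 and 36.6 CPM in Myc_Utx and at 14.6, 6.64 and 7.66 CPM in Myc_p53 (log2 difference 2.16, edgeR adjusted p = 0.0185). Polr2l, a subunit shared by the RNA polymerases (1.61, edgeR adjusted p = 0.0239), and Hras, a small GTPase (1.5, edgeR adjusted p = 0.0195), also had differences above that of Taldo1. Cd151 (0.98), Rplp2 (0.87), Tspan4 (0.61) and Phrf1 (0.44) were the other genes called. The tested neighbours closest to Taldo1 on either side, Eps8l2 at -0.18 and Gatd1 at 0.51, did not pass (edgeR adjusted p = 0.892 and 0.189).

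**Figure D4:**
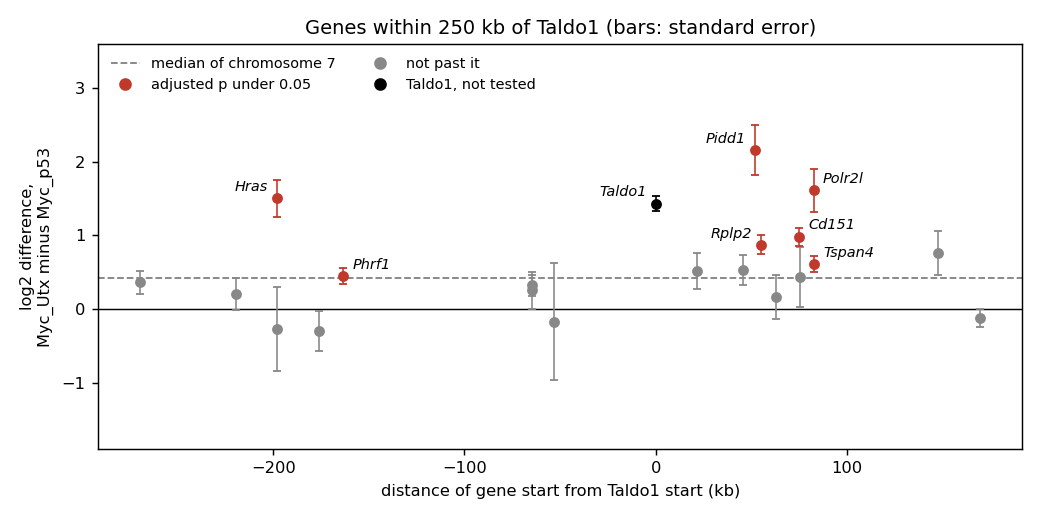
Log2 difference of Taldo1 and the 20 tested genes within 250 kb of it, against the distance of each gene start from that of Taldo1 in kilobases, with bars for the standard error and a dashed line for the median of chromosome 7 (0.43). Called genes (red) lie on both sides among genes that were not called (grey).

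Over the 6 lines, the 5 genes of 9270 with a mean of at least 10 CPM whose log2 CPM followed Taldo1 most closely were Dcun1d5 (Pearson's r 0.999), Ctbp1 (0.998), Trp53 (0.998), Pepd (0.997) and Vps33b (0.997). These values describe 6 points in 2 groups, and any gene that is level within both groups and differs between them reaches a high r. The sizes were unlike, with log2 differences of 0.72, 0.32, 3.08, 1.68 and 0.63. Among the pathway genes r with Taldo1 was 0.958 for G6pdx, 0.876 for Rpe, 0.859 for Prps2, 0.841 for Pgd, 0.824 for Pgls, 0.815 for Prps1, 0.460 for Tkt, 0.179 for Rpia and -0.739 for H6pd. G6pdx had the highest r of these, with a CV of 23.9% in Myc_p53 beside 2.41% for Taldo1.

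The enzymes that feed, drain or parallel the pathway were read from 7 lists with 73 genes, of which 61 were tested. In all, 13 were higher and 1 lower, with a median log2 difference of 0.34 (6.99% and 7.69% of all genes, median -0.01). Of 5 paralogues of the members, 4 had few or no reads: G6pd2 and Tktl2 had 0 counts, which allows up to 3 counts in a library, and Tktl1 and Prps1l1 had at most 2 and 1. The other, Prps1l3, is a Prps1-like gene that may share reads with Prps1, and it was at 88.7, 87.4 and 84.0 CPM in Myc_Utx and at 92.2, 69.7 and 74.5 CPM in Myc_p53. Prpsap1 and Prpsap2, which bind the PRPP synthetases, had log2 differences of 0.27 and 0.50 (edgeR adjusted p = 0.117 and 0.198).

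There were 11 tested genes at the links with glycolysis and other sugar phosphates. In edgeR 1 was higher (6.99% of all genes) and 0 were lower (7.69%), and 10 were above 0 (49.2%), with a median of 0.63. DESeq2 called 4 higher (9.37% of all genes given an adjusted p) and 0 lower (11.5%). The gene called in edgeR was Dera, deoxyribose-phosphate aldolase (log2 difference 0.85, edgeR adjusted p = 0.0353). Dera was at 40.9, 36 and 47.2 CPM in Myc_Utx against 24.2, 25.6 and 19.2 CPM in Myc_p53. Tigar, a fructose 2,6-bisphosphatase that is a known p53 target, was at 26, 43.4 and 44.3 CPM in Myc_Utx and at 34.4, 11.8 and 30.4 CPM in Myc_p53. Its groups overlapped, with a log2 difference of 0.57 (standard error 0.42, edgeR adjusted p = 0.380).

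Among users of PRPP, 2 of 4 tested genes of salvage and NAD synthesis were higher and 0 were lower. Beside this list and the purine and pyrimidine lists below, 6.99% of all genes tested were higher and 7.69% lower. Aprt, which joins PRPP to adenine, was at 258, 269 and 288 CPM in Myc_Utx and at 139, 167 and 131 CPM in Myc_p53 (log2 difference 0.90, edgeR adjusted p = 0.0164). Hprt, which does so for hypoxanthine and guanine, had a log2 difference of 0.87 (edgeR adjusted p = 0.0393), and 0.53 with length and GC offsets (0.109); it too is X-linked. Nampt (0.28) and Uprt (-0.15), the other genes tested, did not pass. Of 11 genes of purine synthesis, 2 were higher, Adsl (0.53, edgeR adjusted p = 0.0282) and Atic (0.49, edgeR adjusted p = 0.0481), and 0 were lower, with a median of 0.10. Ppat, the enzyme that commits PRPP to purines, had a log2 difference of -0.01 with overlapping groups. Of 5 genes of pyrimidine synthesis, 1 was higher, Umps, which joins orotate to PRPP, at 162, 167 and 183 CPM against 116, 112 and 108 CPM (0.61, edgeR adjusted p = 0.0202), and 0 were lower.

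Of 12 tested genes of other NADPH sources, 1 was higher (6.99% of all genes) and 0 were lower (7.69%), with a median of 0.20. The higher gene was Mthfd1, a cytosolic folate enzyme (log2 difference 0.71, edgeR adjusted p = 0.0483). Me1, cytosolic malic enzyme, was at 84.0, 143.9 and 122.6 CPM in Myc_Utx and at 214, 168 and 207 CPM in Myc_p53. All Myc_Utx lines were below the Myc_p53 lines for Me1, and its log2 difference of -0.75 missed the threshold in edgeR (adjusted p = 0.0623) and passed it in DESeq2 (0.0169).

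The NRF2 pathway list holds 15 genes of an oxidative stress response whose factor, encoded by Nfe2l2, is known to bind genes of the oxidative arm. Of these, 6 were higher (6.99% of all genes) and 1 lower (7.69%) in Myc_Utx. Their median log2 difference was 0.37, beside -0.01 for all genes tested. Nfe2l2 itself was at 214, 214 and 203 CPM in Myc_Utx and at 124, 148 and 142 CPM in Myc_p53 (0.61, edgeR adjusted p = 0.0227). Its inhibitor Keap1 had a log2 difference of 0.31 (edgeR adjusted p = 0.108). Hmox1, heme oxygenase (1.62), Ftl1 and Fth1, the ferritin chains (1.30 and 0.92), Gclc, the catalytic subunit of glutamate cysteine ligase (1.04), and Txn1, thioredoxin (0.70), were the other higher genes (edgeR adjusted p between 0.0130 and 0.0474). Gclm, the modifier subunit of the same ligase, went the other way, at 138, 150 and 155 CPM in Myc_Utx against 209, 232 and 212 CPM in Myc_p53 (-0.56, edgeR adjusted p = 0.0240). With length and GC offsets Hmox1, Fth1 and Txn1 no longer passed (adjusted p = 0.0672, 0.0770 and 0.0685), and the calls of the other 4 genes stood. Nqo1, a common marker of the response, was below all Myc_p53 lines in every Myc_Utx line, at 0.397, 1.12 and 1.11 CPM against 2.20, 12.2 and 3.12 CPM. Its log2 difference of -2.70, the largest in size of the list, missed the threshold in edgeR (adjusted p = 0.0705) and passed it in DESeq2 (0.0268).

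**Figure D5:**
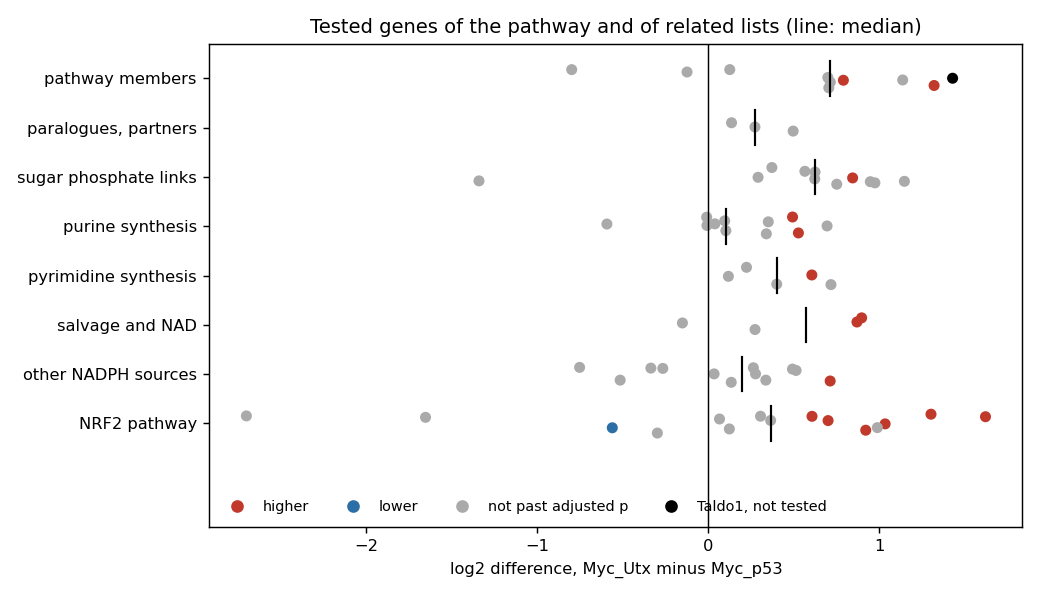
Log2 difference, Myc_Utx minus Myc_p53, of every tested gene of the pathway and of the 7 related lists, 1 point a gene, with a vertical line at the median of each row (Taldo1 counts in the first). Red genes were higher and the blue gene, Gclm, lower at an adjusted p under 0.05, and grey genes did not pass.

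The core of the antioxidant response element, the sequence bound by NRF2, was looked for because members of both lists differed between the groups. RefSeq promoter windows of GRCm38.p6, from 250 bases before to 50 bases after each start, were searched on both strands for TGACNNNGC. All 10 genes matched, with 11 windows, and the core was in 2 of these 11 windows, those of G6pdx and Pgd, beside 12.4% of all 32851 windows, so the count is no result about these genes. The E-box CACGTG, bound by MYC, was in 7.15% of all windows and in no window of the 10 genes. The sites are printed with 10 bases on each side, in the direction of the gene and with the core in capitals:
G6pdx, chrX:74428919-74428947, minus strand: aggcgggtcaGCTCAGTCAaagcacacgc
Pgd, chr4:149166061-149166089, minus strand: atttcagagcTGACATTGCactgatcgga
In G6pdx the core reads on the opposite strand and its printed letters begin 57 bases before the start; in Pgd it begins at base 4 after 1 of the 2 starts listed. Both RefSeq starts lie inside the Ensembl bounds of these genes, so they are not the outermost start of either gene. A match describes these letters only, and binding was not measured.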

How the data were processed

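RNA-seq was analysed in 3 Myc_Utx and 3 Myc_p53 cell lines, grouped by genotype label. The authors deposited whole-number read counts for each Ensembl gene, not normalized. The submitters' processing notes name Trimmomatic 0.36, STAR 2.5.3a, featureCounts 1.6.3, DESeq2 1.20.0 and GRCm38, whereas the paper's methods name HTSeq and a human build; coordinates equal GENCODE M21 for 95.9% of genes.

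Counts were tested with edgeR 4.0.16 (R 4.3.3): filterByExpr with a minimum count of 10, TMM and the quasi-likelihood F test, with Benjamini-Hochberg adjusted p called under 0.05. Standard errors are the log2 difference over the square root of F. On simulated counts, 73.0% of 196 genes changed by 2 (log2) were recovered and 7.14% of calls were false. The members differed by less (at most 1.43, for Taldo1), and recovery of differences of their size was not simulated. Alternatives were no filter, 10 counts in every line, DESeq2 size factors, total counts, length and GC offsets (MASS 7.3.60.0.1, splines with 5 degrees of freedom), DESeq2 1.42.0 and leaving out each line. Longest-transcript lengths and chromosome medians were added after seeing the data.

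Members, lists and tests were chosen with earlier results of these data known. Named are the 10 members, called genes of each list (at most 4 a direction by size), some preset paralogues and regulators, the 5 genes most like Taldo1, its neighbours and markers; Me1, Ppat, Nampt, Uprt, Txn1 and Nqo1 were named after their values were seen. Counting error assumes a Poisson distribution.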

Additional observations from a re-analysis of the deposited data

How the results depend on the processing

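No paired analysis was possible because no replicate number links a Myc_Utx line to a Myc_p53 line. The log2 difference of Taldo1 was 1.29 with length and GC offsets, 1.37 when scaled by total counts, 1.39 when every line needed 10 counts and 1.0 relative to chromosome 7, an alternative added after seeing the data. Of the 9 other members, 2 were higher with all lines; the count was 1 with length and GC offsets, DESeq2 size factors or total counts, 5 with DESeq2, and 0 to 4 with 1 line left out. It was 0 without Myc_Utx 2A, 2B or 2D or Myc_p53 3, 3 without Myc_p53 1 and 4 without Myc_p53 2, while the same fits called 3, 43, 43, 63, 481 and 836 genes higher in the whole table. None was lower in any fit run. Of the related genes, 13 were higher with all lines, 18 with DESeq2 and 0 to 14 with 1 left out (0 without Myc_Utx 2A, 2B or 2D, 1 without Myc_p53 3, 7 without Myc_p53 1), and 1 was lower, against 2 when every line needed 10 counts, 3 with DESeq2 and 0 to 2 with 1 line left out. Rpia, at -0.12 with all lines, turned to 0.65 without Myc_p53 1, with a range of -0.56 to 0.65. The difference in the Prps2 share, -0.126 percentage points, turned to 1.69 without Myc_Utx 2D and 2.29 without Myc_p53 3, with a range of -2.62 to 2.29. Of 108 fits of single members, 87 kept their direction and side of the threshold, 12 lost the threshold, 8 passed it and 1 reversed. The cause was not tested. With 3 lines a group, genes below about 10 counts were mostly not tested.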
